A study of Mus musculus with 16 samples.

Results

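The kidney of the wild-type mouse at 7 days of age was described from 7 of the 16 arrays of the series, those whose sample names carry the genotype Aqp11+/+. The series was made to study the loss of Aqp11, a water channel found inside cells, and its knockout arrays were not used here. Each of the 7 arrays held RNA of the kidney of a separate pup: males 1-1, 3-1 and 4-1, and females 2-1, 2-2, 4-2 and 5-1. The pups were wild-type littermates from crosses of Aqp11+/- parents, whose allele was made on a 129/SvEvBrd background and moved by repeated back-crossing to C57/BL6, so all 7 may carry remnants of the first strain. They received no treatment that the labels name, and the strain label is C57BL/6J. The 5 different first numbers in the sample names stand beside 5 breeding pairs in the study's design, but the labels do not say that the number marks a pair. The number of pups limits the precision of every value.

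At this age the mouse kidney is still being built. New nephrons arise in the outer cortex from progenitors that express Six2, the ureteric bud branches to form the collecting ducts, and these progenitors are used up within days of birth. Tubules formed earlier meanwhile acquire the transporters, the endocytic machinery and the mitochondria of the adult organ.

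The arrays were probed with the Affymetrix Mouse Genome 430 2.0 design, whose probe sets name 18194 genes here. Values are log2 signal after quantile normalization, and a gene is represented by its probe set with the highest mean. A probe set was called measured where it lay above the 40th percentile of its array, at log2 4.52, on at least 4 of the 7 arrays. It was called dim where it lay at or below that line on all 7. By this rule 12254 genes (67.4%) were measured, 4521 (24.8%) were dim on every array and 1419 lay between. The median over all genes was 6.60, and the brightest 5%, 910 genes, began at 10.39. Brightness mixes RNA abundance with the affinity of the probes, so the values place a probe set on the array and do not rank mRNAs. A dim probe set does not show that a gene is off. In whole kidneys, fewer cells of a type and less RNA per cell cannot be told apart. Over the 7 arrays the trimmed mean of the deposited signal ran from 111 in kidney 5-1 to 211 in 2-2, the actin 3′/5′ ratio from 1.16 to 1.25, and the correlation of levels between pairs of arrays from 0.962 to 0.987. Aqp11 itself was measured on all 7 arrays, from 7.70 in 5-1 to 8.08 in 1-1.

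Of the 5 marker genes, 4 were measured on every array, while 67.4% of all genes were measured. Slc34a1, the sodium-phosphate cotransporter of the proximal tubule brush border, gave 11.86 in kidney 2-1, 11.89 in 2-2, 12.04 in 3-1, and between 11.99 and 12.03 in the other 4. Umod, which encodes uromodulin of the thick ascending limb, ran from 11.92 in 2-1 through a median of 12.19 to 12.46 in 3-1. Both stood among the brightest 5% of genes in every kidney, and Slc34a1 varied little, with an SD of 0.07 (n = 7). Umod had another probe set whose mean was 11.37 ± 0.35 (SD, n = 7) where the brighter gave 12.16 ± 0.19, so the level depended on the probe set. Aqp2, the vasopressin-regulated water channel of collecting duct principal cells, ran from 9.57 in 3-1 through 10.12 to 10.82 in 5-1, a 2.38-fold range. Nphs1, which encodes nephrin of the podocyte slit diaphragm, ran from 7.90 in 2-2 through 8.01 to 8.38 in 4-1. The spread of Aqp2 came from its ends: 3-1 lay below and 5-1 above the other 5 kidneys.

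Six2, the transcription factor that keeps nephron progenitors undifferentiated, was dim on all 7 arrays, as were 24.8% of all genes. It gave 3.61 in 1-1, 2.75 in 2-1, 3.04 in 2-2, 3.26 in 3-1, 4.52 in 4-1, 4.13 in 4-2 and 3.96 in 5-1. The floor of the scale is 2.75, the 20th percentile, so 2-1 was at the floor and 4-1 just under the line. The marker of the uninduced progenitor was therefore not detectable as a signal above the line in any kidney.

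**Figure D1:**
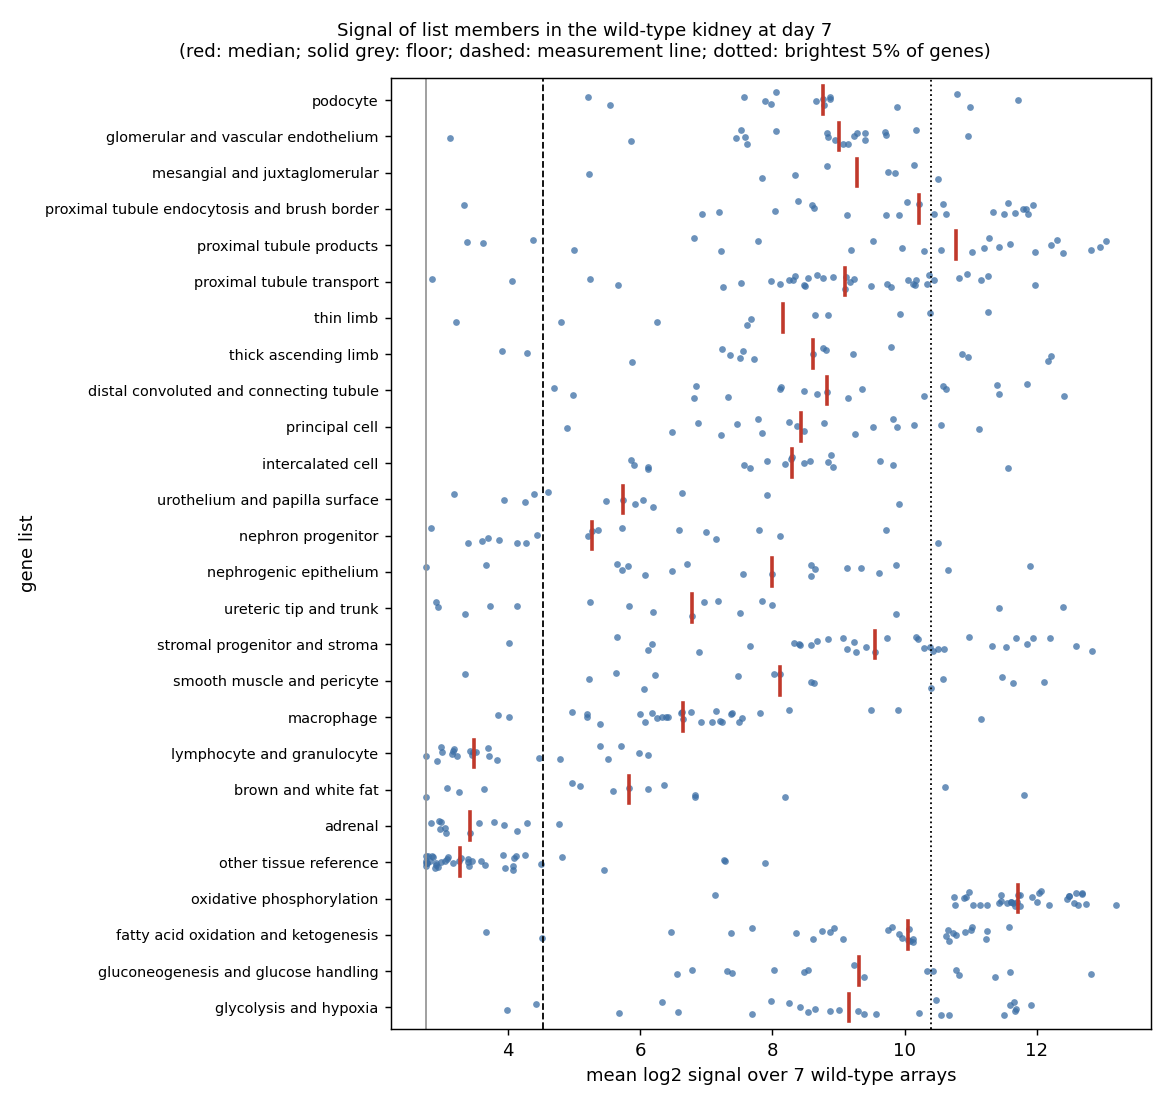
Mean log2 signal over the 7 wild-type arrays (x axis) for every matched member (points) of 26 gene lists (y axis), with the list median in red, the floor at 2.75, the measurement line at 4.52 and the start of the brightest 5% of genes at 10.39. Members of oxidative phosphorylation sit at the bright end, with a median of 11.71, while the reference genes of other tissues sit near the floor, with a median of 3.27.

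The other genes of the nephron progenitor list were mixed. Of 19 matched members, 12 were measured and 4 were dim, with a list median of 5.27 against 6.60 over all genes. The dim members were Six2, Gdnf, the ligand that draws out the ureteric bud, Meox2, and Fgf20, a growth factor of progenitors. The brightest were Itga8 at 10.50 ± 0.18 (SD, n = 7), an integrin that glomerular mesangial cells also carry, Ncam1 at 9.72 ± 0.11, Sall1 at 8.11 ± 0.36 and Hoxa11 at 7.80 ± 0.13. Cited1, which marks the earliest progenitors and was chosen here after its values were seen, was measured on all 7 arrays, but low, from 4.99 to 5.60. The brightest member, Itga8, is thus shared with the mesangial list, and which cells gave the signal of the others was not tested.

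Genes of the epithelium that follows the progenitor had a list median of 7.99. Of 19 members of the nephrogenic epithelium list, 17 were measured and only Fgf8, a ligand of the forming nephron, was dim, at the floor on all 7 arrays. Sox4, a transcription factor of immature cells, stood at 11.89 ± 0.21 (SD, n = 7), and the Notch ligand Jag1 at 9.87 ± 0.26. The ureteric tip and trunk list had 12 of 17 measured and 2 dim, Hoxb7 and Sox8. Its brightest members, Cdh16 (kidney cadherin) at 12.40 ± 0.03 and Calb1 at 11.43 ± 0.30, are also genes of mature tubules. Ret, the receptor of ureteric tips, named after its values were seen, was above the line in 1 kidney of 7. All 34 members of the cell cycle list were measured, led by Pcna at 11.54 ± 0.17 and Stmn1 at 11.30 ± 0.17.

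The proximal tubule reabsorbs most of the filtered solute and protein. In the endocytosis and brush border list 22 of 23 members were measured and 11 were among the brightest 5% of genes. Lrp2 (megalin, the receptor that takes up filtered protein) stood at 11.94 ± 0.08 (SD, n = 7), Dab2, the adaptor of that uptake, at 11.87 ± 0.09, and the membrane peptidases Mep1a and Enpep at 11.83 ± 0.08 and 11.79 ± 0.18. The exception was Treh, the brush border trehalase, which was dim on every array. Among proximal tubule products 21 of 24 were measured and 13 were in the brightest 5%. Gpx3, a secreted glutathione peroxidase, stood at 13.05 ± 0.07, Kap, the kidney androgen-regulated protein, at 12.95 ± 0.15, Fbp1, an enzyme of glucose synthesis, at 12.81 ± 0.15, and Fxyd2, a subunit of the sodium pump, at 12.39 ± 0.09.

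Transporters of the same tubule were more uneven. In that list 34 of 36 were measured, 6 in the brightest 5%, with a median of 9.10. After Slc34a1 came the water channel Aqp1 at 11.26 ± 0.13, the bicarbonate cotransporter Slc4a4 at 11.15 ± 0.10 and the urate exporter Abcg2 at 10.94 ± 0.13 (SD, n = 7). Slco1a1, an organic anion transporter of adult male kidney, was dim on all 7 arrays, and Slc22a7, a transporter of organic anions named after its values were seen, was above the line in 1. Slco4c1 varied most, from a mean of 5.24 with an SD of 0.84.

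A search of the proximal promoters was added as a description. The letters GTTAAT, the core that the HNF1 factors of proximal tubule and liver recognise, were sought on both strands in RefSeq promoters of the GRCm38.p6 build, from 250 bases before to 50 after the start. They were present in 13 of the 68 genes of the 3 proximal tubule lists that had a promoter in the table (19.1%), in 8.24% of 27025 genes of the table and in 5.62% of 9896 measured genes with a promoter. They were also present in 3 of 13 thick ascending limb genes, 3 of 21 stromal genes and 5 of 31 reference genes of other tissues. So the share was not particular to the proximal tubule. Of the other lists searched, oxidative phosphorylation had them in 0 of 27 genes, macrophage in 0 of 22 and principal cell in 0 of 13. A match is a description, not a site. The 3 brightest proximal tubule members with a match are shown 5′ to 3′, on the plus strand of chr15:89334223-89334522, chr13:55399398-55399697 and chr15:6386498-6386797 in turn, with GTTAAT or its complement in capitals. Slc34a1 held it in both directions.
Miox: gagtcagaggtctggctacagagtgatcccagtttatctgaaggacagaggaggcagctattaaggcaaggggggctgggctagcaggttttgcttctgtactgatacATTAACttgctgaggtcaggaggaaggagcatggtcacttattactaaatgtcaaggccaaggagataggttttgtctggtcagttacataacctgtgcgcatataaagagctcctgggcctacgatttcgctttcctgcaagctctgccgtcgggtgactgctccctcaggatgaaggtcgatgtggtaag
Slc34a1: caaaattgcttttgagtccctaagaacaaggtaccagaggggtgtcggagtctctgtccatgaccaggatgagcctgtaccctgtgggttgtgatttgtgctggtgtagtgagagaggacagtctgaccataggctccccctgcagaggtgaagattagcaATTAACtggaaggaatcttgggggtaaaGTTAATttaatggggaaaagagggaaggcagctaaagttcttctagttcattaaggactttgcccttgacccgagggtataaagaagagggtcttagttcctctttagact
Dab2: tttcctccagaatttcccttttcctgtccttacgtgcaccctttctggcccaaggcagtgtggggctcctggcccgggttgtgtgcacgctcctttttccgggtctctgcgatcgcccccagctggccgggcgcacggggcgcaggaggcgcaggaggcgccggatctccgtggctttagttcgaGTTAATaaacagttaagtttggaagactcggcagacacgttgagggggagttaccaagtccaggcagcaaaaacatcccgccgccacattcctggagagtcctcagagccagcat

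Genes of the later nephron segments and of the collecting duct were mostly measured too, where 67.4% of all genes were. The thick ascending limb list had 15 of 17 members measured, with Slc12a1, the furosemide-sensitive salt cotransporter, at 12.22 ± 0.20 and the claudin Cldn10 at 10.86 ± 0.08 (SD, n = 7). All 19 distal convoluted and connecting tubule members were measured, led by S100g, a calcium-binding protein, at 12.41 ± 0.15, and by Klk1, renal kallikrein, at 11.85 ± 0.25. All 18 principal cell genes and all 18 intercalated cell genes were measured too. Tfcp2l1, a transcription factor of the collecting duct, gave 11.13 ± 0.11, Hsd11b2, the enzyme that protects the mineralocorticoid receptor from glucocorticoids, 9.88 ± 0.12, carbonic anhydrase Car2 11.56 ± 0.11 and the ammonia channel Rhcg 9.82 ± 0.18. The thin limb list had 9 of 10 measured, and its brightest member was Aqp1, which the proximal tubule transport list also holds. Urothelial genes were dimmer, with 9 of 13 measured, a median of 5.74, and Krt7 its brightest member at 9.92 ± 0.13.

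Glomerular genes held a middle band. All 15 podocyte genes were measured, with a median of 8.76. Cdkn1c, the cell cycle inhibitor of differentiated podocytes, stood at 11.72 ± 0.11, Podxl, the sialomucin of their surface, at 10.99 ± 0.13, Actn4 at 10.79 ± 0.09 and Cd2ap at 9.88 ± 0.14 (SD, n = 7). Kidney 1-1 had the lowest podocyte list mean, 8.47, and the lowest value of 11 of the 15 members, where 12.8% of all measured genes were lowest in 1-1. The other kidneys had list means from 8.58 to 8.76. Of 20 endothelial genes 19 were measured, led by Emcn (endomucin) at 10.96 ± 0.03, and the artery connexin Gja5 was dim. All 8 mesangial and juxtaglomerular genes were measured, and Des, at 5.22 ± 0.50, and Pdgfrb, from 9.19 in 5-1 to 10.26 in 3-1, varied most.

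Stromal genes, which make the matrix between the tubules, were bright too. Of 35 stromal progenitor and stroma genes 34 were measured and 12 were in the brightest 5%, with a median of 9.56. Col3a1, a fibrillar collagen, stood at 12.84 ± 0.07, the matrix protein Sparc at 12.59 ± 0.07, Col1a2 at 12.19 ± 0.14 and Mgp, an inhibitor of calcification, at 11.93 ± 0.08 (SD, n = 7). None of the 34 reached an SD of 0.5, where 5.02% of all measured genes did, mainly those of lower signal. Foxd1, the transcription factor of stromal progenitors, named after its values were seen, was measured in all 7 kidneys at 6.90 ± 0.25. So the stromal progenitor gene was above the line where Six2 was not, although brightness cannot be compared between their probe sets. Smooth muscle genes were measured in 14 of 15 cases, led by Acta2 at 12.11 ± 0.12.

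Energy metabolism gave the list with the highest median level and the lowest median SD of its members. All 36 oxidative phosphorylation genes were measured, 35 of them among the brightest 5% of genes, with a median level of 11.71. Their median SD was 0.08, where all measured genes had a median SD of 0.19. Most of the latter were dimmer, and large SDs lay mainly at lower signal. The SD of the list mean, 0.06, was not the lowest of the lists. Uqcrb, a subunit of complex III, stood at 13.20 ± 0.03 and Cox6a1, of cytochrome oxidase, at 12.74 ± 0.05 (SD, n = 7). Cox7c was the exception at 7.14 ± 0.26. Of 31 genes of fatty acid oxidation and ketogenesis 29 were measured and 11 were in the brightest 5%, led by the dehydrogenases Acadm at 11.58 ± 0.07 and Acadl at 11.23 ± 0.09, and with the thiolase Acaa1b at 11.24 ± 0.20.

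Genes of glucose synthesis and genes of glycolysis were bright together. All 16 genes of glucose synthesis and handling were measured, with Fbp1 followed by Pck1, which makes phosphoenolpyruvate, at 11.59 ± 0.27, G6pc, which releases free glucose, at 11.36 ± 0.38 and the glucose transporter Slc2a2 at 10.82 ± 0.22 (SD, n = 7). Of 26 glycolysis and hypoxia genes 25 were measured, led by lactate dehydrogenase Ldhb at 11.91 ± 0.18, Ndrg1 at 11.69 ± 0.16 and Aldoa at 11.67 ± 0.11. Amino acid metabolism had 39 of 44 measured. Glud1, which frees ammonia from glutamate, gave 11.70 ± 0.11, while Agxt, Bhmt and Tdo2, enzymes known from liver, were dim. All 23 genes of cholesterol and lipid synthesis were measured, led by Hmgcs1 at 11.90 ± 0.15.

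Among the 15 brightest genes outside the ribosome, 12 ribosomal protein genes being mixed with them, were the mitochondrial ND5, the elongation factor Eef1a1, Tpt1, Uqcrb, the actins Actb and Actg1, Gpx3, the thymosins Tmsb10 and Tmsb4x, Itm2b, Akr1a1, Kap, Col3a1, Igfbp7 and the sodium pump subunit Atp1b1. Their means ran from 12.83 for Atp1b1 to 13.54 for ND5. The proximal tubule products Gpx3 and Kap and a collagen thus stood beside genes that all cells use. ND5 held the top rank on every array, so quantile normalization gave it the same value in each.

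The lists of other tissues, of the adrenal and of lymphocytes and granulocytes were mostly dim, but the erythroid and fat lists were not. Of 15 fat genes 11 were measured and 3 were dim. In the reference list of other tissues 28 of 40 genes were dim on every array and 5 were measured, Krt10, Mbp, Apoa2, Oxt and Hcrt, against 24.8% dim and 67.4% measured over all genes. The dim ones included Ins2 and Gcg of the pancreatic islet, Myh6 of the heart and Prm2 of sperm. Of 13 adrenal genes 7 were dim and 2 were measured, Star at 4.77 ± 0.32 and Pnmt at 4.29 ± 1.00 (SD, n = 7), and the lymphocyte and granulocyte list had 12 dim of 22, with Cd3e, Cd3g, Cd3d and Cd4 among them. Of 18 erythroid genes 9 were measured and 8 were dim. Here 4 globin probe sets that name several genes were not used, so the level of globin was not described.

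Differences between the kidneys were small for most genes. The median SD of the 12254 measured genes was 0.19, with quartiles of 0.13 and 0.28, and 615 (5.02%) had an SD of at least 0.5. Of the 615, only 39 had a mean above the median of measured genes, 7.82, and 543 had no array at the floor. Large SDs thus lay mainly among measured genes of lower signal, and the genes named below are those of larger signal or the largest SD. In the text that follows, sample numbers have no order.

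**Figure D2:**
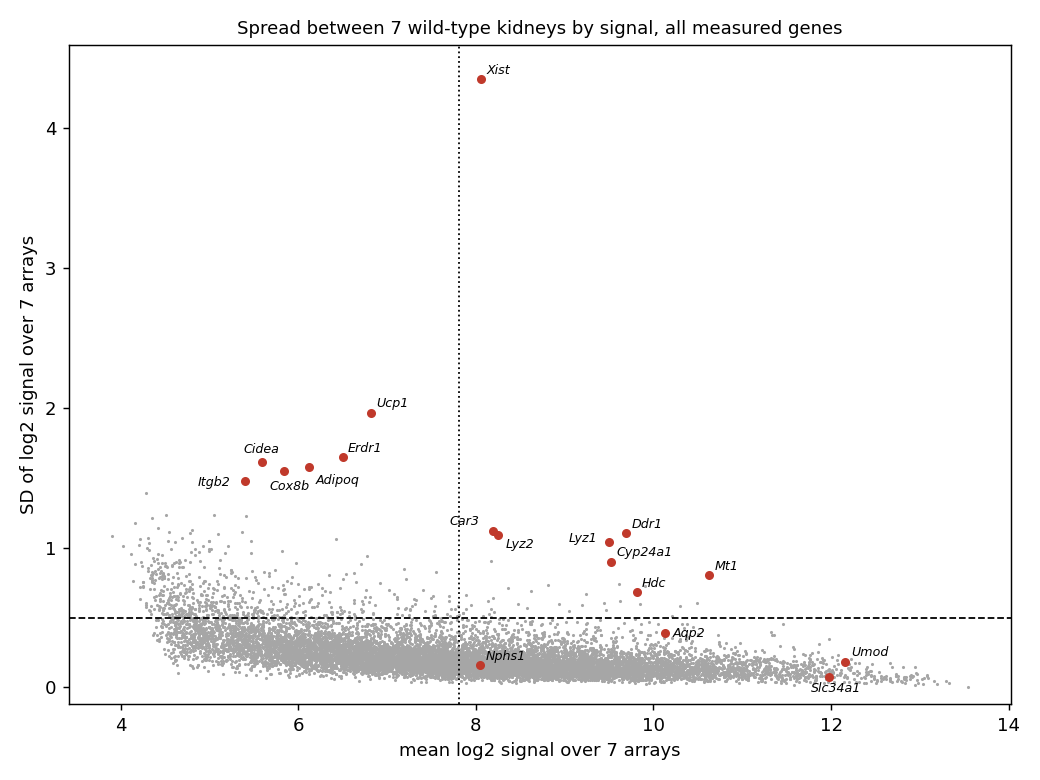
SD of log2 signal over the 7 wild-type arrays (y axis) against mean log2 signal (x axis) for the 12254 measured genes (grey points), with the SD line of 0.5 dashed, the median level of 7.82 dotted and named genes in red. Xist has the largest SD, 4.35, Ucp1, Erdr1, Cidea, Adipoq and Cox8b follow left of the median level, and Slc34a1 has an SD of 0.07 at a mean of 11.98.

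Of the 10 genes with the largest SD, 4 belong to the fat list. Ucp1, the uncoupling protein of brown fat, gave 9.75 in 1-1, 6.65 in 2-1, 7.29 in 2-2, 6.68 in 3-1, 3.07 in 4-1, 7.21 in 4-2 and 7.09 in 5-1. Cidea, a lipid droplet protein of brown fat, ran from the floor in 4-1 through 5.70 to 8.10 in 1-1. Adipoq (adiponectin) ran from 3.33 in 4-1 through 6.04 to 8.67 in 1-1, and Cox8b from 3.03 through 5.97 to 8.30 in the same 2 kidneys. For all 4 genes 1-1 lay above and 4-1 lay below the other 5 kidneys, and 4-1 was under the measurement line. Car3, an abundant carbonic anhydrase of fat and muscle, had the same ends, 6.55 and 10.28, a 13.3-fold range.

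The list held other members of the same kind. Of its 15 matched members 11 were measured, 6 of these (54.5%) had an SD of at least 0.5 against 5.02% of all measured genes, 8 of 11 were highest in 1-1 and 7 of 11 were lowest in 4-1. Of all measured genes 13.4% were highest in 1-1 and 13.4% lowest in 4-1. The lists were chosen with earlier results of these data known. The 6 also hold the 4 genes above, so these shares are only a description. The list mean was 8.36 in 1-1, 5.74 in 4-1 and between 6.82 and 7.32 in the other 5. The SD of the list mean was 0.77 over 7 kidneys, 0.61 without 1-1 and 0.53 without 4-1. Fabp4 and Lpl, which endothelium and other cells also express, were bright and steady on their brightest probe sets, at 11.80 ± 0.11 and 10.61 ± 0.15 (SD, n = 7). Other probe sets of Fabp4 had SDs of 0.45 to 0.60, and the other of Lpl had 0.32. Lep, Cidec and Elovl3 were dim on every array. Whether the signal of these genes came from adjacent fat tissue was not tested, nor was its part in other values of these kidneys.

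Many genes of the macrophage list set kidneys 2-1 and 2-2 above the rest. Lyz1, a lysozyme gene of the macrophage list, gave 11.15 in 2-1 and 10.84 in 2-2, and between 8.60 and 9.10 in the other 5. Another Lyz1 probe set, at a mean of 7.25, was also highest in those 2 kidneys. A further one, at a mean of 3.03, was dim on all 7 arrays. Lyz2 gave 9.99 and 9.68 against 7.50 to 7.69, Cybb, the oxidase subunit of phagocytes, 8.03 and 7.88 against 5.47 to 6.13, and Itgb2, the leukocyte integrin chain, 7.54 and 7.50 against 4.06 to 5.02. For each of these 4 genes, picked as bright or variable members, the 2 kidneys did not overlap with the other 5. The same held for 16 of the 29 measured members of the macrophage list (55.2%) and for 7.45% of all measured genes. In the lymphocyte and granulocyte list it held for 3 of 7 measured members (42.9%).

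**Figure D3:**
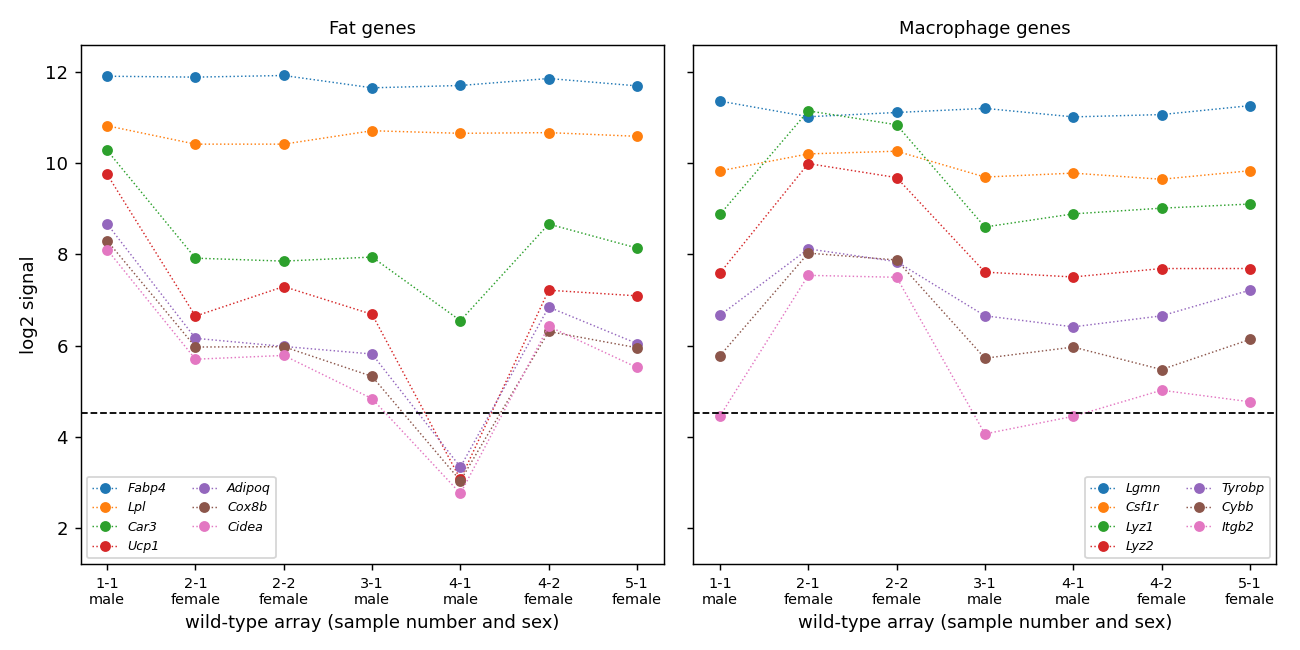
Log2 signal (y axis) of 7 of the 11 measured fat genes (left) and 7 of the 29 measured macrophage genes (right) on each wild-type array (x axis, with sex), with the measurement line at 4.52 dashed and thin lines joining the values of a gene. Ucp1, Adipoq, Cox8b and Cidea peak in 1-1 and lie under the line in 4-1, and Lyz1, Lyz2, Cybb and Itgb2 peak in 2-1 and 2-2.

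The macrophage list mean was 7.57 in 2-1 and 7.54 in 2-2, and 6.70 to 6.88 in the other 5. Of its 31 matched members 29 were measured, and 9 (31.0%) had an SD of at least 0.5. Csf1r, the growth factor receptor of macrophages, had the same order with a smaller gap, 10.20 and 10.26 in 2-1 and 2-2 against 9.65 to 9.83. Mrc1, named after its values were seen, was steady at 7.38 ± 0.10 (SD, n = 7), with 2-1 and 2-2 inside the range of the others. Lgmn, a protease that proximal tubules also make, was the brightest at 11.15 ± 0.13. The granulocyte genes S100a8 and S100a9 were also highest in 2-1 and 2-2, at 7.16 and 6.91 for S100a8 against 4.84 to 6.11 in the other kidneys. Of the same list, Ighm was highest in 5-1 at 6.35 and Zap70 in 3-1 at 6.04. Kidney 2-1 also had the highest 3′/5′ ratio of the pyruvate carboxylase control, 5.32 against 3.66 to 4.52, and its part in these values was not tested.

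A limma F-test over the first sample numbers, of which 2 and 4 hold 2 kidneys each, called 533 of 12254 genes (4.35%) at an adjusted p under 0.05. The macrophage list held 11 of these among 29 measured members, with Lyz1 at an adjusted p of 0.000382 and Lyz2 at 0.000626. The fat list held none, and Ucp1 had an adjusted p of 0.165. Only 2 degrees of freedom were left among samples, and without the variance trend of the fit no gene was called, while 3398 genes had an unadjusted p under 0.05 with it. After those lysozymes the smallest p-values belonged to Hdc, histidine decarboxylase, at an adjusted p of 0.00117, and to Rad21 and Clcn3 at 0.00383. The correlation of deviations from the gene means was 0.243 between 2-1 and 2-2 and 0.166 between 4-1 and 4-2, the highest of the 21 pairs, and the lowest was -0.411 between 2-1 and 4-2.

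Enzymes of vitamin D differed between the kidneys. Cyp24a1, which inactivates vitamin D in the proximal tubule and is among the 20 most variable genes above the median level, gave 9.58 in 1-1, 9.36 in 2-1, 8.58 in 2-2, 10.90 in 3-1, 8.28 in 4-1, 9.79 in 4-2 and 10.18 in 5-1, a 6.15-fold range. Its other probe set had the same highest and lowest kidney, 3-1 and 4-1. Cyp27b1, which activates vitamin D, gave 6.90, 7.37, 7.33, 6.84, 7.98, 7.76 and 6.33 in the same order. Kidney 4-1 was thus lowest for the inactivating enzyme and highest for the activating one, and 3-1 and 5-1 were the 2 highest for the first and the 2 lowest for the second. The order was not inverse throughout, since 2-2 was low for Cyp24a1 and in the middle for Cyp27b1.

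The metallothioneins varied together. Mt1, a metal-binding protein that zinc and glucocorticoids induce, gave 11.72 in 1-1, 10.70 in 2-1, 11.48 in 2-2, 10.65 in 3-1, 9.40 in 4-1, 9.99 in 4-2 and 10.43 in 5-1. Mt2 ran from 8.89 in 4-1 through 9.20 to 10.45 in 1-1. On their brightest probe sets both were highest in 1-1 and next in 2-2, and lowest in 4-1. Another Mt1 probe set, at a mean of 4.09, was above the line on 3 arrays only and highest in 3-1 at 5.38. The glutathione and xenobiotic list that holds them had its highest mean in 1-1, 9.49, with 17 of 26 members highest there against 13.4% of all measured genes, and its lowest in 4-1, 8.98. Proximal tubule transport followed in part, with a list mean of 9.43 in 1-1, 19 of 34 members highest there against the same 13.4%, and 9.02 to 9.27 in the other 6. The fat list mean was likewise highest in 1-1 and lowest in 4-1, and its part in these values was not tested. Slc2a5, the fructose transporter, was the most variable gene of glucose handling, from 6.50 in 4-1 through 7.22 to 8.34 in 1-1.

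Hdc and Ptn were set apart by their lowest kidney. Hdc gave 8.45 in 1-1 and 9.46 to 10.47 in the other 6, and its other probe set was lowest in 1-1 too. Ptn, the growth factor pleiotrophin, gave 7.99 in 1-1 and 8.87 to 10.09 elsewhere. Ptprc, the common leukocyte antigen, was highest in 2-1 at 9.15, as the macrophage list mean was. Cholesterol and lipid synthesis was lowest in 1-1 as well, with a list mean of 8.36 and 12 of 23 members lowest there against 12.8% of all measured genes, and highest in 2-1 at 8.79.

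Another pattern set 3-1, 4-1 and 4-2 above the rest. Ddr1, a collagen receptor, gave 10.31 in 3-1, 10.90 in 4-1 and 11.16 in 4-2 against 8.27 to 9.20 in the other 4, and Rad21, of the cohesin ring, gave 10.15, 10.78 and 10.94 against 9.19 to 9.56. Of the 39 genes with an SD of at least 0.5 above the median level, 22 had these as their 3 highest kidneys. The 39 were chosen for their spread, and the same share over all measured genes was not counted. So the 22 are only a description of these 39. H3f3b, a histone gene among the 20, did not have these 3 kidneys highest, with 9.75 in 3-1 and 7.48 in 4-1. For several of these genes another probe set was flat. Psmc4, a proteasome subunit, had an SD of 0.74 on its brighter probe set and 0.09 on the other, whose means were 9.61 and 9.54. Rad21 had SDs of 0.72 and 0.69 on a pair of probe sets and 0.09 on another, at a mean of 9.34. Lztr1 had 0.73 on its brighter probe set and 0.15 on another at a mean of 8.49. Ddr1 had 1.10 on its brightest probe set, but 0.13 and 0.18 on others with means of 8.21 and 7.16. A further Ddr1 probe set, at a mean of 7.58, had 0.46 and was highest in 4-1 and 4-2. One near the line, at a mean of 4.74, had 0.92. Of the 20 genes, 15 had another measured probe set, and for 9 of the 15 such a probe set also had an SD of at least 0.5. The 9 included Xist, Car3, Lyz1, Cyp24a1 and Hdc, whose 3 highest kidneys were not these. The rest of the 15 were Psmc4, Lztr1, Tspyl1, Irak1, Aco1 and Cyp20a1, each highest in 3-1, 4-1 and 4-2 on its brightest probe set. Their other measured probe sets had SDs of 0.09 to 0.39. Why probe sets of 1 gene differ in spread was not tested.

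**Figure D4:**
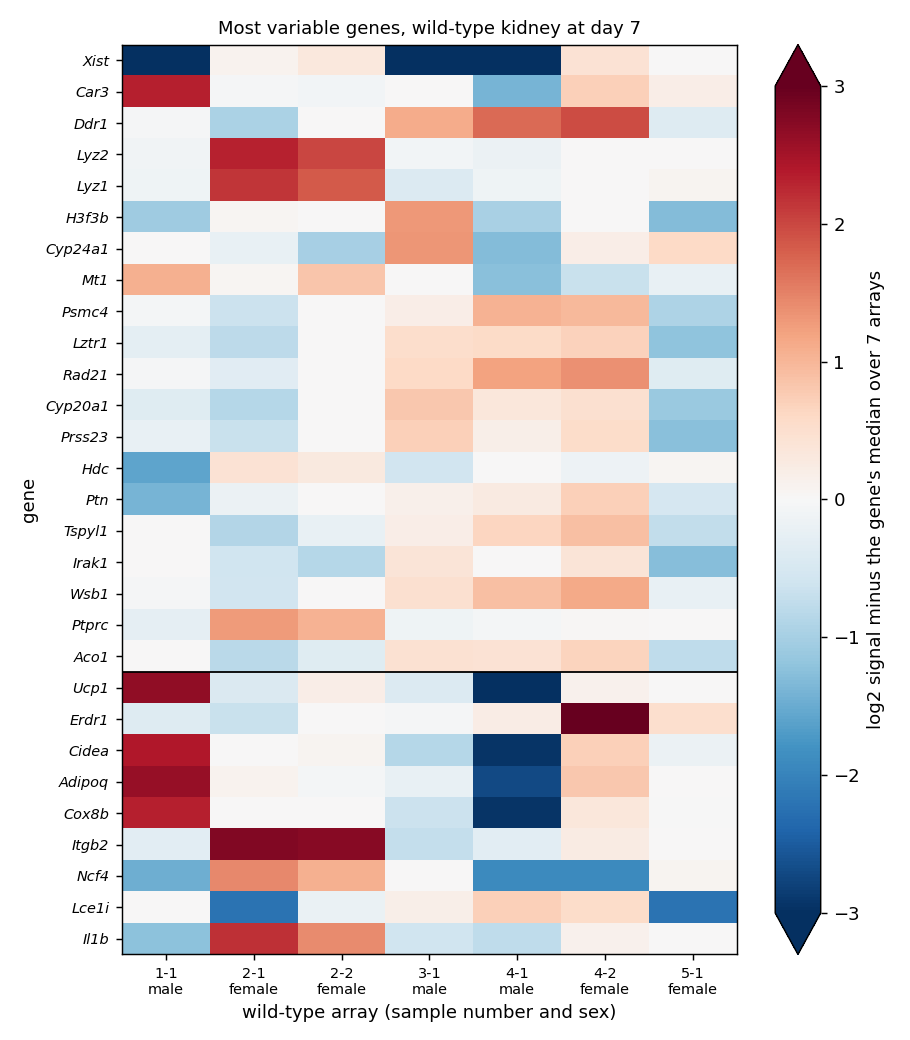
Log2 signal minus the gene's median over the 7 wild-type arrays (colour, limited to 3 in either direction) on each array (x axis, with sex) for the 20 most variable genes above the median level (upper block) and the remaining genes of the 10 most variable of all (lower block). The fat genes stand out in 1-1 and 4-1, the leukocyte genes in 2-1 and 2-2, and Ddr1, Psmc4, Rad21, Wsb1 and Aco1 are high in 3-1, 4-1 and 4-2.

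The first principal component of the measured genes took 33.3% of the variance and placed kidney 5-1 (29.6) and 2-1 (15.4) opposite 4-2 (-18.6). The kidney with the lowest deposited signal, 5-1, was thus at its end, and the part of signal strength in the component was not tested. The cell cycle, stroma and endothelium lists had their highest means in 5-1, at 8.43, 9.75 and 8.94. Stroma was nearly as high in 4-2, at 9.74, although 4-2 lay at the other end of the component. Other lists, macrophage and fat among them, were highest in other kidneys. For cell cycle 4-2 was lowest at 8.05, with 22 of 34 members lowest there, where 19.8% of all measured genes were lowest in 4-2. Of all measured genes 26.6% were highest in 5-1. The endothelium list mean had an SD of 0.0757 over 7 kidneys and 0.0203 without 5-1.

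Sex is the only contrast between wild-type kidneys that the labels give, and no agent or genotype divides the 7. It had few genes. A limma fit with sex as the term, Benjamini-Hochberg adjusted over 12254 measured genes, called 2 (0.0163%) at an adjusted p under 0.05, and 616 had an unadjusted p under 0.05. Xist, the RNA that silences an X chromosome in females, gave 11.54 ± 0.20 in 4 females (SD) and was dim in the 3 males at 3.44 ± 0.69. With each male value raised to the line, it was at least 129-fold higher in females, with an exact two-sided permutation p of 0.0286 (n = 3 and 4), the smallest these groups can give. Since Xist passed the filter only through the females, its limma call adds nothing to this. Eif2s3x, an X-linked translation factor that escapes silencing, was 0.61 lower in log2 signal in males, 9.94 ± 0.02 against 10.55 ± 0.07 (SD, n = 3 and 4), with a limma adjusted p of 0.037. The call for Eif2s3x was lost in every fit that left out 1 kidney, where its limma adjusted p ran from 0.0742 to 0.636, although the log2 difference itself stayed between -0.64 and -0.60. It was also lost with median centring, at 0.386, with the median of its probe sets, at 0.863, without _s_ and _x_ probe sets, at 0.843, and with the deposited scaling, at 1.00.

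**Figure D5:**
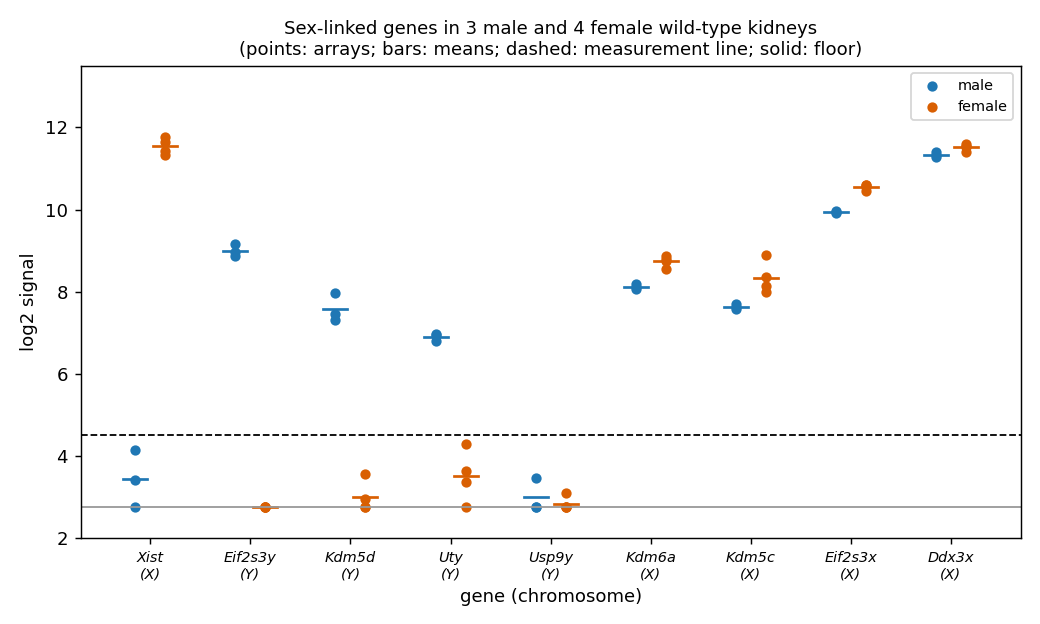
Log2 signal (y axis) of 9 sex-linked genes (x axis, with chromosome) in 3 male (blue) and 4 female (orange) wild-type kidneys, with points for arrays, bars for means, the measurement line at 4.52 dashed and the floor at 2.75 solid. Xist lies above 11 in females and under the line in males, and Eif2s3y, Kdm5d and Uty show the opposite.

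Y-linked genes checked the labels of sex. By their brightest probe sets Eif2s3y, Kdm5d and Uty were above the line in all 3 males and in no female, so they missed the filter of 4 arrays and did not enter the fit. They were at least 22.2-fold, 8.31-fold and 5.23-fold higher in males, each with an exact two-sided permutation p of 0.0286 (n = 3 and 4), the smallest that 3 against 4 can give. Usp9y was dim in both sexes. The 16 values of the 4 Y-linked genes in females ran from 2.75 to 4.30 on those probe sets, and none was above the line. Another Kdm5d probe set reached 4.58 in female 4-2, just above the line, and 5.47 to 5.58 in the males. Kdm6a, an X-linked demethylase, gave 8.13 ± 0.06 in males and 8.75 ± 0.13 in females (SD), but its limma adjusted p was 0.478.

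Genes that are known to differ between the sexes of adult kidney had 9 of 16 matched members measured. The limma fit called none of the 9, which is near the 0.0163% of all genes. At an unadjusted limma p under 0.05 there were 4 of the 9, all higher in males, beside 616 of 12254 genes in all (5.03%), of which 282 were higher in males. These 4, Kap, Slc7a12, Slc7a13 and Slc22a29, were each highest in male 1-1. Slc7a12 gave 9.00 there, 8.28 and 8.31 in the other males, and 8.05 to 8.28 in females. The direction each gene has in the adult was not set beside these values. Kap gave 13.06 ± 0.06 in males and 12.87 ± 0.14 in females (SD, n = 3 and 4), with a limma adjusted p of 0.852. Slc7a13, an amino acid transporter, gave 8.64 ± 0.42 and 8.10 ± 0.27, with the same adjusted p. The male-biased adult genes Cyp4a12a, a fatty acid hydroxylase, and Slco1a1 were dim in every kidney of both sexes. On simulated data of the same size the fit recovered 34.4% of genes with a log2 change of 0.5 and 91.1% of those with a change of 2, so a small difference could be missed.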

How the data were processed

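The RNA of 7 wild-type kidneys was hybridised to 7 arrays, and the authors deposited a value table of intensity per probe set, produced with GCOS 1.3 per the submitters' processing notes. The scaling of each array by that software was not given in the sources used here. All deposited intensity values of the 7 arrays were floored at 6.75, their 20th percentile after quantile normalization (R 4.3.3, limma 3.58.1), and taken to log2. Of 45101 probe sets, 64 are controls and 34945 name 1 gene in the platform annotation. Together these gave 18194 genes, 18032 of them found in the RefSeq table, each represented by its brightest probe set. Names not matched, 82 of 989 in the lists, were not analysed here.

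Sexes (3 and 4 kidneys) and first sample numbers were compared with limma's lmFit and eBayes with a variance trend, Benjamini-Hochberg adjusted at 0.05 over 12254 measured genes. Single values were compared with exact permutation tests. SDs and levels are descriptions. The fits were tested on simulated data, where the sex fit made 141 calls, 6 of them false. The genes named are the 5 markers, up to 4 brightest, 4 dim and 3 most variable members of each list, the 15 brightest genes, the 20 and 10 most variable, and those passing the tests with the smallest p. Any other member was picked with its values in view. The members and lists were chosen with earlier results of these data known. Promoters are RefSeq's. Floors, lines, normalization, probe set choice and single arrays were varied.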

Additional observations from a re-analysis of the deposited data

Results flagged for a closer look

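In each group of 7 kidneys, 41 list means and 43 named genes were examined for a highest or lowest kidney that stood far from its nearest neighbour, by Dixon's ratio. This singled out 1 list mean and 7 genes. Chance singles out about 1 in 20 groups, but many of these genes were named for a large spread or a small p, so their number is not to be read against that rate. The endothelium list mean was 8.94 in kidney 5-1, and the next was 8.77. Without 5-1 the SD of that list mean was 0.0203, where it was 0.0757 over all 7. Nphs1 of the podocyte was 8.38 in 4-1, above 8.10 in the next kidney. Erdr1 was 10.13 in 4-2, far above 6.46 in the next.

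Some genes were lowest in 5-1, the kidney with the lowest deposited signal: Clcn3 at 8.32, Klhl2 at 5.50 and Reep3 at 9.10, whose nearest neighbours were 9.40, 6.96 and 10.14. Other probe sets did not all share this: another of Clcn3, with a mean of 8.70, was highest in 5-1 at 8.96, and another of Reep3, with a mean of 9.67, had an SD of 0.08. Apoe, a lipid carrier protein, was 11.58 in 1-1, and the next kidney gave 10.65. Mest, an imprinted gene of fetal growth, was 9.58 in 1-1, and the next gave 10.23. The first numbers 1 and 5 hold 1 kidney each, so the first number test of these genes rests on the same values.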

How the results depend on the processing

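The number of measured genes stayed within 1.5 times of 12254 under every alternative, and no value changed its direction. Genes dim on every array, 4521, numbered 2121 with the line at the 30th percentile and 7807 at the 60th. Genes with an SD of at least 0.5, 615, numbered 1630 with the deposited scaling, 1533 with the line at the 30th percentile, 119 at the 60th and 3109 with no filter. Of the 20 most variable genes, 7 were shared when the median of probe sets was used, 10 by median absolute deviation, 11 with no filter, 12 without _s_ and _x_ probe sets, 13 with the line at the 60th percentile, and at least 14 under the others.

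Genes differing between sexes, 2, numbered 1 with median centring, with the median of probe sets, without _s_ and _x_ probe sets and with no variance trend, 4 with no filter, 5 with the line on 3 arrays (added after the data were seen, and passed by the Y-linked genes through the 3 males alone), and 0 to 1 when a kidney was left out. It was 0 without any female, since Xist then passed the line on 3 arrays only.

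Genes differing by first number, 533, numbered 1899 with median centring, 8264 with the deposited scaling, 163 with the median of probe sets, 1588 with sex as a second term, 0 with no variance trend, 1972 without both kidneys of number 2 (added later) and 241 to 2555 with 1 kidney left out, so the count is not firm. The cause of these shifts was not tested. With the first number as a random block the sex fit called 2 genes. Signal near the background limits what is said of dim genes, and 7 kidneys limit every SD.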

Other observations

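Other groups of genes fill in the picture of the organ at this age. Of 31 transcription factors of tubules 29 were measured, led by Tfcp2l1, Hnf4a at 10.53 ± 0.06, a regulator of proximal tubule identity, Maf at 10.30 ± 0.35 and the glucocorticoid receptor gene Nr3c1 at 10.04 ± 0.16 (SD, n = 7). Their list mean had an SD of 0.04, the lowest of all 41 lists. Among 20 imprinted and fetal growth genes 18 were measured, with Plagl1 at 11.25 ± 0.13, while Lin28b and Trim71, which act in earlier development, were dim on every array. The most variable members of that list were Hmga2 (SD 0.53), Mest and Igf1.

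Genes of injury were mixed, with Vim at 11.70 ± 0.13 and Clu at 10.79 ± 0.20, which stroma and developing tubules also express, and with Havcr1, the proximal tubule injury marker, dim in all 7 kidneys. In the interferon list 20 of 21 were measured, led by B2m at 11.39 ± 0.13, Rsad2 at 10.10 ± 0.10 and H2-D1 at 10.09 ± 0.14, and Mx1 was dim. Of 30 immediate early genes 24 were measured and Fosb, Fosl1, Egr2 and Rgs1 were dim. Nr1d1 of the circadian clock ranged over an SD of 0.60, and the list mean of the clock genes was highest in 1-1 at 7.41 and lowest in 4-1 at 7.00. All 15 heat shock genes were measured, led by Hspa8 at 12.66 ± 0.17.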
